A study of Homo sapiens with 4 samples.

Results

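The 10 genes described here are the Notch receptor genes NOTCH1, NOTCH2 and NOTCH3, the ligand genes JAG1, JAG2 and DLL1, and the target genes HES1, HES4, HEY1 and NRARP. They were chosen by name, as rows whose Ensembl identifier pairs with one of these symbols, and all 10 were found among the 48162 genes of the count table. RNA of NCI-H1703, an established lung cancer cell line, was sequenced from cells with stable overexpression of EGFR-AS1, a long noncoding RNA read antisense to EGFR (2 libraries, A and B), and from cells transfected with the pCDNA vector (2 libraries, A and B). Overexpressing and vector cells alike were kept in RPMI with 10% fetal bovine serum and hygromycin at 100 µg/ml. Whether either line was 1 clone or a pool, and whether A and B were separate cultures, is not given in the sources used here, so every p-value below measures only the spread between these libraries.

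Notch is a receptor that a ligand on a neighbouring cell activates. Jagged and Delta-like ligands bind the receptor, ADAM proteases and gamma-secretase cut it, and the freed intracellular domain enters the nucleus and joins RBPJ and a Mastermind protein on DNA. There it raises genes of the HES and HEY repressors and of feedback inhibitors such as NRARP. In the airway, Notch signalling is known to set the balance between secretory, ciliated and neuroendocrine cells, and in lung tumours it has been described both as promoting and as opposing growth.

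With EGFR-AS1 overexpression the receptor gene NOTCH3 was higher, and the ligand gene JAG2 and the feedback gene NRARP were lower. The other 6 tested genes did not pass the threshold, an adjusted p under 0.05 by edgeR's quasi-likelihood test over all 16106 genes tested. HES4 had too few reads to be tested. Of the 9 tested genes, 1 was called higher and 2 lower, where 7.80% of all tested genes were called higher, 6.67% lower and 14.5% in either direction. The groups did not overlap for 6 of the 9, against 55.5% of all tested genes. The median log2 fold change was -0.14 over the 9 genes and 0.0040 over all tested genes.

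**Figure D1:**
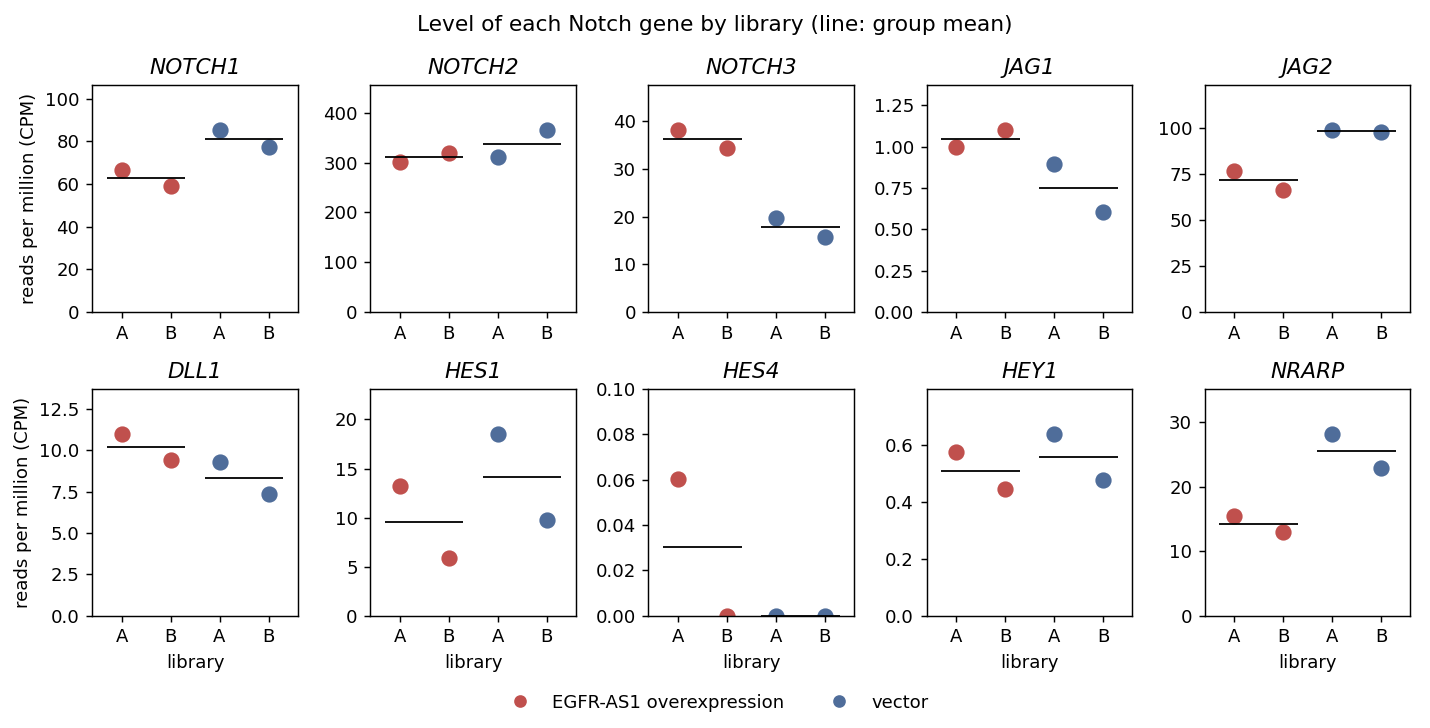
Reads scaled to library size (CPM, linear axes from 0, a separate scale per gene) of the 10 Notch genes in EGFR-AS1 overexpression libraries A and B (red) and vector libraries A and B (blue); each point is 1 library and each line a group mean. NOTCH3 lies between 34.5 and 38.1 CPM with overexpression, above 15.8 and 19.8 CPM in vector, NRARP lies lower with overexpression, and HES1 differs more between A and B than between groups.

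Library totals were 32680467 and 33750041 counted reads with overexpression and 41518275 and 32601449 in vector. EGFR-AS1 itself had 670 and 586 reads in overexpression A and B, against 59 and 37 in vector A and B, which goes with the labels. The amplified receptor genes known of this line, PDGFRA and FGFR1, were strongly expressed in every library. PDGFRA was lower at 514 ± 66.3 CPM with overexpression and 766 ± 122 CPM in vector (edgeR adjusted p = 0.00909), and FGFR1 was higher at 1442 ± 104 CPM with overexpression and 697 ± 121 CPM in vector (edgeR adjusted p = 6.15e-05). The 4 epithelial markers summed to 37.0 and 30.7 CPM with overexpression and 73.4 and 88.7 CPM in vector. Of these, the keratin genes KRT8 (log2 fold change -1.09, edgeR adjusted p = 0.00628) and KRT18 (log2 fold change -1.28, edgeR adjusted p = 1.35e-05) were lower, and EPCAM and CDH1 had 2 to 8 reads per library. Overexpression A stood apart in some genes of basal epithelium and fibroblasts. KRT13 had 49 reads there and 1 in overexpression B, against 3 and 2 in vector, KRT5 had 19 reads there and 0 in each other library, and DCN had 39 reads there and 0 in each other library. The 9 basal and squamous markers summed to 13.3 and 7.10 CPM with overexpression and 4.86 and 7.84 CPM in vector, and the 6 fibroblast markers to 14.8 and 12.1 CPM with overexpression and 8.99 and 5.65 CPM in vector. Within these lists SFN, at 65 and 42 reads with overexpression and 19 and 14 in vector, and COL3A1, at 44 and 30 reads with overexpression and 10 and 16 in vector, were called higher (edgeR adjusted p = 0.00428 and 0.0256). In both genes both overexpression libraries lay above both vector libraries. COL3A1 passed the low-count filter only through the overexpression libraries, so its call could only be higher. Endothelial and leukocyte markers summed to at most 0.635 CPM in any library, and the leukocyte gene TYROBP and the endothelial gene KDR were at 0 reads throughout. The part of these marker shifts in the results was not tested, and the 3 called genes below are also given without overexpression A. In bulk RNA, fewer cells that express a gene and less RNA of it per cell cannot be told apart.

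NOTCH3 (ENSG00000074181, chromosome 19), a receptor known from smooth muscle and from several carcinomas, had 1262 and 1161 reads in overexpression A and B, against 840 and 498 reads in vector A and B. Both overexpression libraries lay above both vector libraries. Its level averaged 36.3 ± 2.57 CPM with overexpression and 17.8 ± 2.84 CPM in vector (SD, n = 2 each). The log2 fold change was 1.02 (standard error 0.15, adjusted p = 0.000251 by edgeR), a 2.03-fold rise. It passed under all 12 alternatives, which used another tool, scaling, filter or term, or left out 1 library. Without overexpression A, the library that stood apart, the log2 fold change was 0.94 (edgeR adjusted p = 0.00047). Of its 50 nearest tested coding genes, 4 were called higher and 8 lower, with a median log2 fold change of -0.15. Over all tested genes 7.80% were called higher and 6.67% lower.

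NOTCH1 (ENSG00000148400, chromosome 9), the receptor best known from T-cell leukaemia and from loss in squamous carcinoma, had 2212 and 1984 reads with overexpression and 3612 and 2440 reads in vector. Scaled to depth it averaged 62.9 ± 5.58 CPM with overexpression and 81.3 ± 5.51 CPM in vector, and the groups did not overlap. The log2 difference of -0.37 (standard error 0.12, adjusted p = 0.0547 by edgeR) did not pass. Over the 12 alternatives its adjusted p ran from 0.00887 to 0.530, and it passed in 4. EGFL7, the next coding gene on the chromosome and a secreted protein that can bind Notch, had a log2 difference of -0.25 (standard error 0.15, adjusted p = 0.314 by edgeR).

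NOTCH2 (ENSG00000134250, chromosome 1) was the most abundant of the receptor genes, with 9955 and 10777 reads with overexpression and 13204 and 11493 reads in vector. It averaged 310 ± 13.7 CPM with overexpression and 338 ± 37.6 CPM in vector, and the groups overlapped. Its log2 difference was -0.12 (standard error 0.12, adjusted p = 0.569 by edgeR). The human genome holds partial, near-identical NOTCH2NL copies of this gene, so the counting may have dropped or split some of its reads. NOTCH4, the receptor of endothelium, had 19 and 14 reads with overexpression and 25 and 7 in vector.

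Divided by exonic length, the 4 receptor genes summed to 28.4 and 28.4 CPM per kilobase in overexpression A and B and to 28.9 and 30.9 CPM per kilobase in vector A and B. NOTCH2 made up 62.9% and 67.0% of that sum with overexpression, against 64.1% and 70.3% in vector. NOTCH1 made up 22.6% and 20.0% with overexpression, against 28.4% and 24.2% in vector. For NOTCH3 the share was 14.3% and 12.9% with overexpression, against 7.30% and 5.45% in vector. The order per length was NOTCH2, NOTCH1, NOTCH3 and NOTCH4 in each of the 4 libraries. The level of NOTCH3 was 0.630 and 0.646 times that of NOTCH1 with overexpression, against 0.257 and 0.225 times in vector. Both receptor sums with overexpression were slightly below both sums in vector, and in both overexpression libraries NOTCH3 made up more and NOTCH1 less of the sum than in either vector library.

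**Figure D2:**
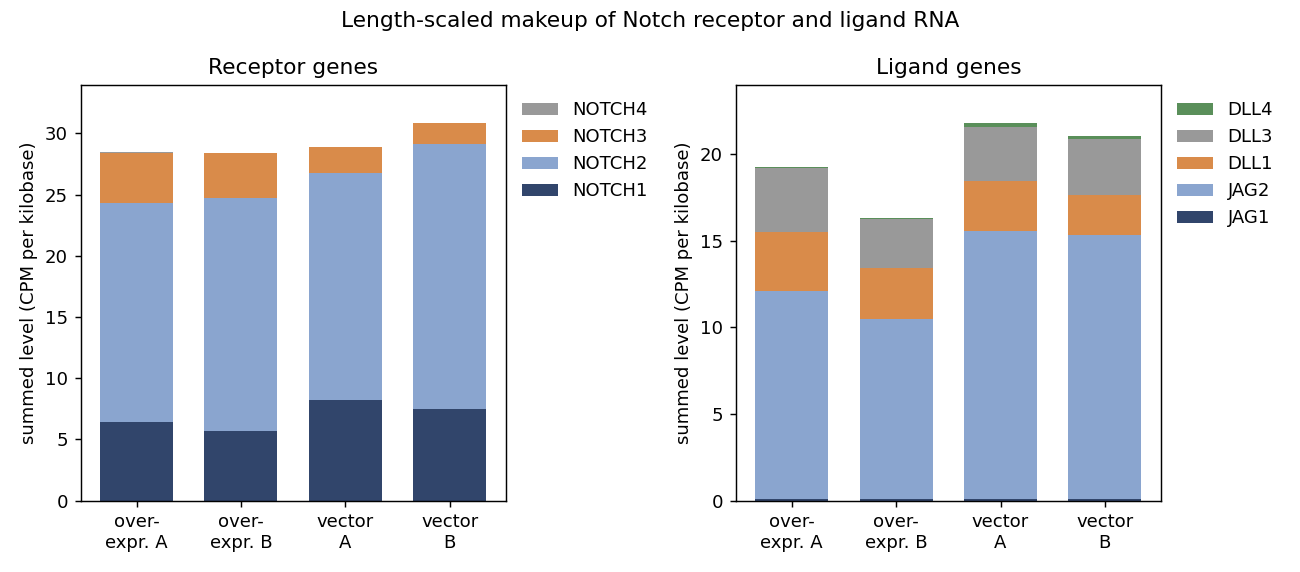
Level per exonic length (CPM per kilobase, stacked, linear axes from 0) of the 4 Notch receptor genes (left) and the 5 Jagged and Delta-like ligand genes (right) in overexpression A and B and vector A and B. NOTCH2 and JAG2 make up most of each bar, the NOTCH3 layer is thicker in the overexpression bars (12.9% and 14.3% of the sum) than in the vector bars (5.45% and 7.30%), and the JAG2 layer is thinner.

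Among ligand genes, JAG2 (ENSG00000184916, chromosome 14) had 2537 and 2236 reads with overexpression and 4183 and 3077 reads in vector. It averaged 71.5 ± 7.23 CPM with overexpression and 98.2 ± 0.738 CPM in vector, and the groups did not overlap. The log2 fold change was -0.46 (standard error 0.12, adjusted p = 0.0169 by edgeR), so vector was 1.37-fold higher. The call was lost without overexpression B (log2 fold change -0.36, edgeR adjusted p = 0.346) and in a test against a fold change of 1.2 (adjusted p = 0.144). Without overexpression A it was just under the threshold, at a log2 fold change of -0.57 (edgeR adjusted p = 0.04997). Of its 33 nearest tested coding genes, limited by the chromosome end, 6 were called lower and 2 higher. A negative log2 fold change was seen in 21 of the 33, with a median of -0.13. Over all tested genes 6.67% were called lower and 7.80% higher, and 7956 of 16106 had a negative value. The part of these neighbours in the JAG2 call was not tested.

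JAG1 (ENSG00000101384, chromosome 20), the ligand whose loss causes Alagille syndrome, was scarce, with 33 and 37 reads with overexpression and 38 and 19 in vector. It averaged 1.05 ± 0.0721 CPM with overexpression and 0.750 ± 0.208 CPM in vector. The log2 difference of 0.46 had a large error (standard error 0.37, adjusted p = 0.475 by edgeR). Per exonic length, JAG2 stood 112 and 87.8 times above JAG1 with overexpression and 160 and 235 times above it in vector. These ratios rest on few JAG1 reads.

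DLL1 (ENSG00000198719, chromosome 6), a Delta-like ligand, had 363 and 316 reads with overexpression and 394 and 231 reads in vector. That was 10.96 and 9.38 CPM with overexpression against 9.30 and 7.33 CPM in vector, with overexpression B just above vector A. Its log2 difference was 0.29 (standard error 0.19, adjusted p = 0.377 by edgeR). DLL3, which acts inside the cell as an inhibitor and marks neuroendocrine tumours, was at 8.51 ± 1.58 CPM with overexpression and 8.34 ± 0.147 CPM in vector (edgeR adjusted p = 0.945).

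DLL4, the ligand of endothelial sprouting, was lower with overexpression, with 10 and 13 reads against 49 and 28 reads in vector. Its log2 fold change was -1.57 (standard error 0.43, adjusted p = 0.0203 by edgeR), and it was not called by DESeq2 (adjusted p = 0.139) or without overexpression A, overexpression B or vector A. The 5 ligand genes together summed to 19.2 and 16.3 CPM per kilobase with overexpression and to 21.8 and 21.0 CPM per kilobase in vector, with JAG2 at 62.3% and 63.6% of it with overexpression and at 70.8% and 72.6% in vector. Each ligand sum with overexpression was below each sum in vector.

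Of the targets, NRARP (ENSG00000198435, chromosome 9), an ankyrin repeat protein that binds the Notch nuclear complex and limits it, had 513 and 438 reads with overexpression and 1192 and 721 reads in vector. It averaged 14.2 ± 1.76 CPM with overexpression and 25.5 ± 3.71 CPM in vector, with no overlap between the groups. The log2 fold change was -0.84 (standard error 0.16, adjusted p = 0.00232 by edgeR), so vector was 1.79-fold higher, and it passed under all 12 alternatives. Without overexpression A it was -0.98 (edgeR adjusted p = 0.00116). Of its 36 nearest tested coding genes, 3 were called, all higher, where 7.80% of all tested genes were called higher. The median log2 fold change of the 36 was -0.06.

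HES1 (ENSG00000114315, chromosome 3), the best known Notch target and a repressor of differentiation genes, had 439 and 200 reads with overexpression and 784 and 308 reads in vector. In CPM these were 13.3 and 5.94 with overexpression and 18.5 and 9.77 in vector, so overexpression A lay above vector B and the groups overlapped. Library A exceeded library B 2.23-fold with overexpression and 1.89-fold in vector. Only 94 of 13491 genes averaging 1 CPM or more (0.697%) had A at least 1.5-fold above B in both groups. The log2 difference between groups was -0.57 (standard error 0.31, adjusted p = 0.265 by edgeR). It was -1.26 without overexpression A (edgeR adjusted p = 0.000314), -0.95 without vector B (edgeR adjusted p = 2.56e-06), -0.10 without overexpression B and -0.03 without vector A. With all 4 libraries kept it passed without the low-count filter (edgeR adjusted p = 0.0199), and over the 12 alternatives it passed in 4.

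HEY1 (ENSG00000164683, chromosome 8), a related repressor of vessels and heart, had 19 and 15 reads with overexpression and 27 and 15 in vector. Its log2 difference was -0.14 (standard error 0.44, adjusted p = 0.875 by edgeR), and its sign turned without overexpression B or without vector A. HES4 (ENSG00000188290, chromosome 1), a close relative of HES1, had 2 reads in library A of the overexpressing cells and 0 in B, against 0 in both vector libraries. A count of 0 allows up to 3 reads, or 0.0891 CPM in overexpression B and 0.0708 and 0.0952 CPM in vector, so a difference was not detectable at this depth. HES5 had 2 reads in all, both in vector B, and HEYL had none.

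**Figure D3:**
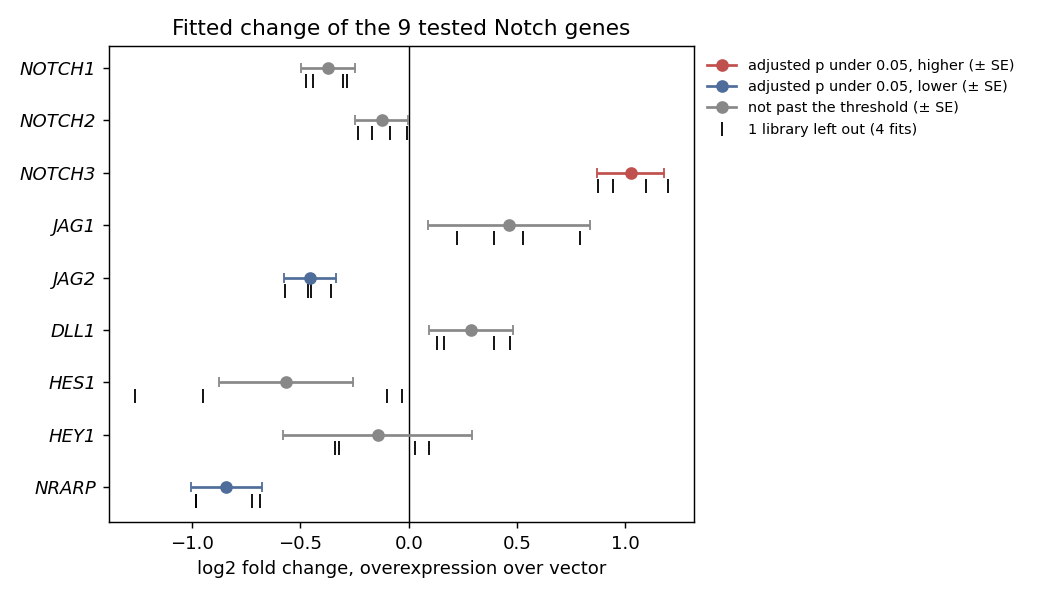
Fitted log2 fold change of the 9 tested Notch genes, EGFR-AS1 overexpression over vector (dots, ± SE from edgeR; red called higher, blue called lower, grey not called), with the 4 fits that leave out 1 library as black ticks below each dot. The ticks of NOTCH3 run from 0.87 to 1.196 and those of NRARP from -0.98 to -0.69, while those of HES1 spread from -1.26 to -0.03.

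The start regions of 3 targets are shown because HES1 and NRARP had the most reads of the 4 targets, and because HES4 had almost no reads while its relative was expressed. Windows from the RefSeq table (GRCh38.p14) were used for 8 of the 10 genes. None was found for DLL1, and HEY1 was left out of the search. Each window runs from 250 bases before the start site to 50 bases from it on, and is printed 5′ to 3′ on the gene's strand. Capitals mark TGGGAA, the core of the motif that RBPJ binds, searched on both strands.

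HES1, chr3:194135898-194136197, plus strand: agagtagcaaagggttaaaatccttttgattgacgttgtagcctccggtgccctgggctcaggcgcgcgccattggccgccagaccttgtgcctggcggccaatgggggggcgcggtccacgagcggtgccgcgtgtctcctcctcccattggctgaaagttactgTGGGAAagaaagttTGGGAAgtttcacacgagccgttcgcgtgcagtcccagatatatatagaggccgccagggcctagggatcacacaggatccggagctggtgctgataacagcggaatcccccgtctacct
HES4, chr1:1000048-1000347, minus strand: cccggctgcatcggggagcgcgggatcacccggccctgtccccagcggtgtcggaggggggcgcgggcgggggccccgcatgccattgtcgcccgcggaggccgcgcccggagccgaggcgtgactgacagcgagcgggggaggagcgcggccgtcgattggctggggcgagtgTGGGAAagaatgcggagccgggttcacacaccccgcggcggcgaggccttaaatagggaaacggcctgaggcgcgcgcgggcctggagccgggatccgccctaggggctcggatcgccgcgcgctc
NRARP, chr9:137302222-137302521, minus strand: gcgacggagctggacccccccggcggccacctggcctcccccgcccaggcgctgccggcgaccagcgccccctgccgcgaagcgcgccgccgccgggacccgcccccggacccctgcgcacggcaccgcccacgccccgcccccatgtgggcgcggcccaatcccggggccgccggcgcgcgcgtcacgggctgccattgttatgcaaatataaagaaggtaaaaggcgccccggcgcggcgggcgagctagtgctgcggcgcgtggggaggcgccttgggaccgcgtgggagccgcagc

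TGGGAA was found at 2 places in the HES1 window, beginning 84 and 70 bases before the start site, and at 1 place in the HES4 window, 76 bases before it. Of all 35116 windows of this length, 24.0% held TGGGAA and 6.25% held the longer GTGGGAA, which both HES1 and HES4 hold once. The longest run that the HES1 and HES4 windows share is TGTGGGAAAGAA, 12 bases long, beginning 86 bases before the start site in HES1 and 78 bases before it in HES4. HES1 had 200 reads or more in every library and HES4 2 reads or fewer. The part of the shared run in these levels was not tested. The windows of NRARP, NOTCH1, NOTCH2, NOTCH3, JAG1 and JAG2 held no TGGGAA. HES and HEY proteins bind the N-box CACNAG and the site CACGNG, whose letters overlap (CACGAG is both). On either strand, the HES1 window held 4 matches of CACNAG and 4 of CACGNG, and 2 places match both. NRARP held 1 match of CACNAG and 3 of CACGNG, and NOTCH3 held 1 of each at the same place. CACNAG was in 38.0% of all windows and CACGNG in 30.5%. A match of letters describes the sequence and is no measured binding.

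The rest of the pathway was described from 76 further genes in lists by role, of which 65 were tested. Of these, 9 were higher and 5 lower with overexpression and 51 did not pass, so 21.5% were called, against 14.5% of all tested genes. Some of the 9 passed the low-count filter only through the overexpression libraries, so their call could only be higher. The median log2 fold change of the 65 was -0.02. The changes were spread over roles and ran in both directions.

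**Figure D4:**
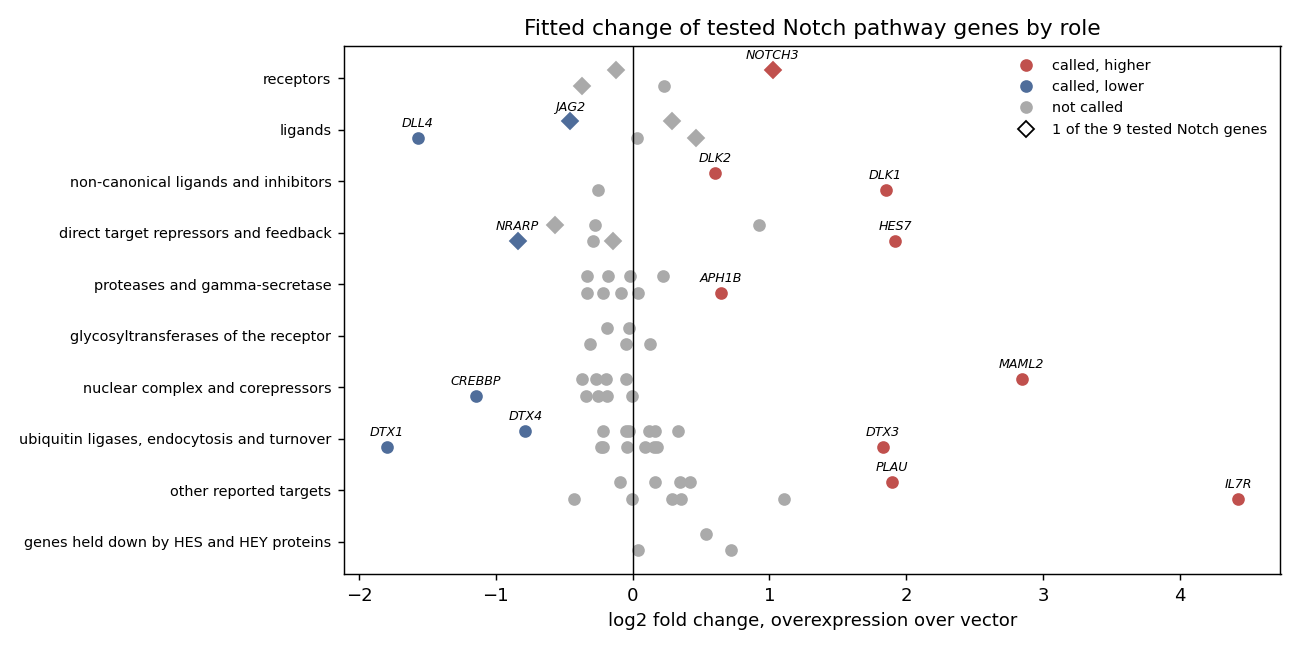
Fitted log2 fold change (overexpression over vector, edgeR) of the tested Notch pathway genes, 1 row per role; diamonds are the 9 tested genes among the 10 described first, red and blue are genes called higher and lower at an adjusted p under 0.05, and grey genes were not called. Called genes shown are named, and 2 called genes are not shown; most grey genes lie within 0.5 of 0, and IL7R lies farthest to the right at 4.42.

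Some ligand-like proteins without the usual receptor-binding domain can block Notch. Of 6 genes listed as non-canonical ligands and inhibitors, 3 were tested. DLK1, which restrains differentiation of fat and endocrine cells, was higher at 73 and 63 reads with overexpression, against 19 and 22 in vector (log2 fold change 1.85, SE 0.36, edgeR adjusted p = 0.00219). Its relative DLK2 was higher at 15.8 ± 0.255 CPM with overexpression and 10.4 ± 0.751 CPM in vector (edgeR adjusted p = 0.0220), a call lost without overexpression A (edgeR adjusted p = 0.130), without overexpression B (edgeR adjusted p = 0.173) and against a fold change of 1.2. ABCC10 on the opposite strand lies over 3.53% of its exonic bases. Of the other HES and HEY genes, HES7, an oscillating repressor of somite formation, was higher at 423 and 277 reads with overexpression, against 167 and 47 in vector. Its log2 fold change was 1.92 (standard error 0.33, adjusted p = 0.000798 by edgeR), with 1.41 without vector B and 2.81 without vector A. By DESeq2 HES7 was just under the threshold (adjusted p = 0.0483). As for HES1, library A exceeded library B in both groups, at 12.8 and 8.23 CPM with overexpression and 3.94 and 1.49 CPM in vector. HES2, at 120 and 111 reads with overexpression and 108 and 32 in vector, did not pass (log2 difference 0.93, SE 0.34, edgeR adjusted p = 0.0834). Its log2 difference was 1.76 without vector A (edgeR adjusted p = 2.64e-06) and 0.44 without vector B (edgeR adjusted p = 0.280).

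Among the enzymes that cut the receptor 11.1% of tested genes were called, and among those that sugar-coat it 0%, against 14.5% of all tested genes. Of 9 genes of the proteases and gamma-secretase, APH1B, a gamma-secretase subunit, was higher at 17.2 ± 1.49 CPM with overexpression and 10.9 ± 2.28 CPM in vector (edgeR adjusted p = 0.0242), and the call was lost without vector B, without overexpression B and against a fold change of 1.2. PSEN2, a catalytic subunit gene, had a log2 difference of -0.34 (edgeR adjusted p = 0.180), and FURIN, which cuts the receptor on its way to the surface, had -0.33 (edgeR adjusted p = 0.0832). None of 5 genes of the receptor's sugar transferases passed. LFNG, MFNG and RFNG, the Fringe genes that tune which ligand a receptor prefers, had edgeR adjusted p of 0.824, 0.509 and 0.498.

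In the nuclear complex, 10 of 11 tested genes had a negative log2 fold change, against 7956 of 16106 over all tested genes. The negative values ran from -1.14 to -0.0066, and 2 of these genes were called. In all, 8 of the 11 were not called, and 27.3% were called in either direction, against 14.5% of all tested genes. CREBBP, a histone acetyltransferase and coactivator shared by many pathways, was lower at 141 ± 6.44 CPM with overexpression and 312 ± 14.7 CPM in vector (log2 fold change -1.14, SE 0.12, edgeR adjusted p = 6.88e-06). Of its 50 nearest tested coding genes on chromosome 16, 31 were called lower and 1 higher, with a median log2 fold change of -0.59. Over all tested genes 6.67% were called lower and 7.80% higher. RBPJ, the DNA-binding partner of Notch, named for its role after its values were seen, was at 54.0 ± 5.17 CPM with overexpression and 61.6 ± 2.70 CPM in vector (log2 difference -0.19, SE 0.12, edgeR adjusted p = 0.369). MAML2, a Mastermind coactivator gene, was higher but scarce, with 21 and 25 reads with overexpression and 7 and 0 reads in vector (edgeR adjusted p = 0.00968), and was not called by DESeq2 (adjusted p = 0.0529). Its log2 fold change of 2.84 was 2.04 without vector B, and without vector A no vector read was left. MAML2 passed the low-count filter only through the overexpression libraries, so a call could only be higher. It is counted among the 9 further pathway genes called higher. So is another gene, not reported here singly, that passed the filter only through the overexpression libraries.

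Of 15 genes of ubiquitin ligases, endocytosis and turnover, 3 Deltex genes changed (20%, against 14.5% of all tested genes called). DTX3 was higher at 29.3 ± 2.94 CPM with overexpression and 8.19 ± 2.43 CPM in vector (log2 fold change 1.83, SE 0.19, edgeR adjusted p = 8.35e-06). DTX1, itself a known Notch target in lymphocytes, was lower at 19 and 11 reads with overexpression, against 66 and 50 in vector (log2 fold change -1.80, SE 0.39, edgeR adjusted p = 0.00492; 0.115 without overexpression B). DTX4 was lower at 97 and 87 reads with overexpression, against 221 and 134 in vector (edgeR adjusted p = 0.0379). It passed in 6 of 12 alternatives and not by DESeq2 (adjusted p = 0.0844). The other 12 genes of the list did not pass.

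Genes that Notch is reported to raise in other cell types gave 2 calls of 11 tested, both higher. That is 18.2%, where 7.80% of all tested genes were called higher and 14.5% in either direction. IL7R, the interleukin 7 receptor gene and a Notch target in T-cell precursors, had 7457 and 7812 reads with overexpression, against 339 and 425 in vector, or 229 ± 4.77 CPM with overexpression and 10.7 ± 3.88 CPM in vector. That is a 21.5-fold rise (log2 fold change 4.42, SE 0.20, edgeR adjusted p = 5.38e-10). Of the 50 nearest tested coding genes of IL7R, 10 were called, all higher, and their median log2 fold change over the 50 was -0.02. PLAU, the urokinase gene, was higher at 8.49 ± 1.84 CPM with overexpression and 2.28 ± 0.0923 CPM in vector (edgeR adjusted p = 4.54e-05). By the reference annotation 31.1% of its exonic bases lie under exons of C10orf55 on the opposite strand, which had 15 and 6 reads with overexpression and 1 and 1 in vector, and the strand setting of the counting is not given in the sources used here. CCND3, a cyclin gene and Notch target in T cells, had a log2 difference of 0.35 (standard error 0.13, adjusted p = 0.0995 by edgeR).

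Of 8 genes that HES and HEY repressors are known to hold down, 4 were tested and the other 4 had at most 1 read in any library. NEUROG2, a neural lineage factor gene, had 27 and 18 reads with overexpression and 16 and 14 in vector (edgeR adjusted p = 0.331). CDKN1C, a cell cycle inhibitor gene, was at 6.01 ± 1.19 CPM with overexpression and 4.09 ± 2.73 CPM in vector (edgeR adjusted p = 0.338).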

How the data were processed

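Strand-specific mRNA libraries of the 4 samples were made by a sequencing provider, per the labels' protocols. The submitters' processing notes name STAR, HTSeq, DESeq2 and the build hg19, without versions or roles. The authors deposited raw whole-number read counts per Ensembl gene, 1 column per library; every column was used. No source used here gives the annotation release, the strand setting or any filter.

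Counts were tested by the quasi-likelihood method of edgeR 4.0.16 under R 4.3.3 (glmQLFit, then glmQLFTest). The fit used TMM factors, filterByExpr with a minimum count of 10, group as the only term and all 4 libraries. Benjamini-Hochberg adjustment ran over the 16106 genes tested. Adjusted p-values are from this fit unless given for another tool, an alternative setting or a library left out. CPM were computed from the counts with the TMM factors. The ± after a mean CPM is the SD between the libraries of a group. The floors given for HES4 cover counting error only. Exonic lengths, gene order and overlaps came from GENCODE 29, which belongs to GRCh38, so no coordinate of it is printed. Neighbours are up to 25 tested coding genes on each side.

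The fit was tested on simulated data with known changes.

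The 12 alternatives were DESeq2 1.42.0, limma-voom (limma 3.58.1), RLE factors, library totals, no low-count filter, at least 1 CPM in 2 libraries, glmTreat at a fold change of 1.2, the set letter as a block, and each library left out. A gene absent from an alternative's table has 11. The genes, lists and alternatives were chosen with earlier results of these data known. By rule the text names the 10 genes, EGFR-AS1, up to 3 genes per list with the smallest p, and NOTCH4, DLL3, DLL4, HES5 and HEYL, which complete a role. Of the called pathway genes, 2 enter the counts and are not reported here singly.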

Additional observations from a re-analysis of the deposited data

How the results depend on the processing

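Of 107 values of the 9 tested genes under the alternatives, 95 kept their direction and their side of the threshold, 2 lost the call (both JAG2), 8 gained it (NOTCH1 and HES1) and 2 changed sign (HEY1). NOTCH3, JAG2 and NRARP were the 3 called; the number called was 5 without a low-count filter, 5 with the set letter as a replicate block and 2 to 5 with 1 library left out. Of the further pathway genes, 14 were called, against 23 with the replicate block and 8 to 20 with 1 library left out, and 7 of the 14 passed in every alternative, among them DLK1, HES7, CREBBP, DTX3, IL7R and PLAU. Over all genes 2332 were called, against 1412 tested against a fold change of 1.2, and 1271 without overexpression B to 3522 without vector A; without overexpression A it was 1299. The set letters were not shown to pair the libraries: the A minus B differences of both groups correlated at 0.303 across 13491 genes, with only 2 pairs, and the block raised the count over all genes to 3467. With the block NOTCH1 (adjusted p = 0.00887), HES1 (log2 fold change -0.59, adjusted p = 0.0146) and HES2 (adjusted p = 0.0192) passed too. Among genes that were not called, leaving out 1 library turned the log2 difference of HEY1 (-0.34 to 0.093), NOTCH4 (-0.25 to 1.14), DLL3 (-0.18 to 0.21), RFNG (-0.40 to 0.075), LFNG (-0.12 to 0.33) and CDKN1C (-0.0025 to 1.47). The causes were not tested. A fit without 1 library assumes that the lone library of its group varies like the other group. With 2 libraries a group the precision is low, most of all for JAG1, HEY1 and HES4, which had few reads.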
